A study of Mus musculus with 6 samples.

Results

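Notch signalling genes were examined in tuft cells sorted from the mouse ileum. The set holds 10 genes of the 23420 in the expression table, chosen by name: the receptors Notch1, Notch2 and Notch3, the ligands Dll1, Dll4, Jag1 and Jag2, the basic helix-loop-helix genes Hes1 and Hes6, and Rbpj, which encodes the DNA-binding partner of the cleaved receptor. RNA was sequenced from 6 libraries that form 1 group, each labelled as a separate mouse replicate with the Gfi1b-eGFP genotype, and the strain is given as C57BL/6J in the titles and as C57BL/6 in the strain field. In this allele green fluorescent protein is made from the locus of Gfi1b, a transcription factor gene that is active in tuft cells but also in blood lineages, and the methods state that the cells were taken as GFP-positive, EpCam-positive, CD45-negative and propidium iodide-negative. Every library carries the reporter allele, the mice were untreated as far as the labels say, the age of each mouse is not in the labels, and no unsorted epithelium or other genotype was part of these data. The comparisons are therefore between genes within a library, which show how the parts of the pathway stood to one another in this sorted fraction.

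Notch is a receptor that is activated by ligands on the surface of a neighbouring cell. Binding leads to cleavage of the receptor by a metalloprotease and then by gamma-secretase, and the freed intracellular part enters the nucleus, binds RBPJ and switches on repressors such as HES1. In the intestinal crypt, cells that receive a Notch signal keep a progenitor or absorptive fate, whereas cells that present Delta-like ligands escape it, express Atoh1 and become secretory. HES6 is a divergent member of the same family that is known to oppose HES1 in neural precursors.

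Levels are given as TPM (transcripts per 1000000), the estimated share of transcripts from a gene, corrected for transcript length. TPM can therefore be compared between genes of a library, but it keeps no sequencing depth, and no counting interval or detection limit can be given. The principal transcripts run from 1335 bases for Hes6 and 1468 for Hes1 to 9488 for Notch1 and 10500 for Notch2. The libraries were amplified before sequencing, and the part of transcript length in differences between genes was not tested. Of the 10 genes, 9 were listed above 0 in all 6 libraries, where 47.2% of all genes were, and Notch3 was listed at 0 in every library. Hes6 was the only one at or above 10 TPM in every library, against 20.7% of all genes. By mean TPM the order was Hes6, Dll1, Hes1, Notch1, Rbpj, Jag2, Dll4, Notch2, Jag1 and Notch3. The step from Hes6 to Dll1 was 1.18 ± 1.02 on the log2(TPM + 1) scale and had the same sign in 6 of 6 libraries. From Hes1 down to Notch2 each neighbour differed from the next by less than the SD of that difference between libraries, and Rbpj and Jag2, at 5.86 and 5.85 TPM, stood in the opposite order in 4 of 6 libraries. Dll1 exceeded Hes1 in 5 of 6 libraries, by 0.76 ± 1.39, which is also within the spread (SD, n = 6).

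**Figure D1:**
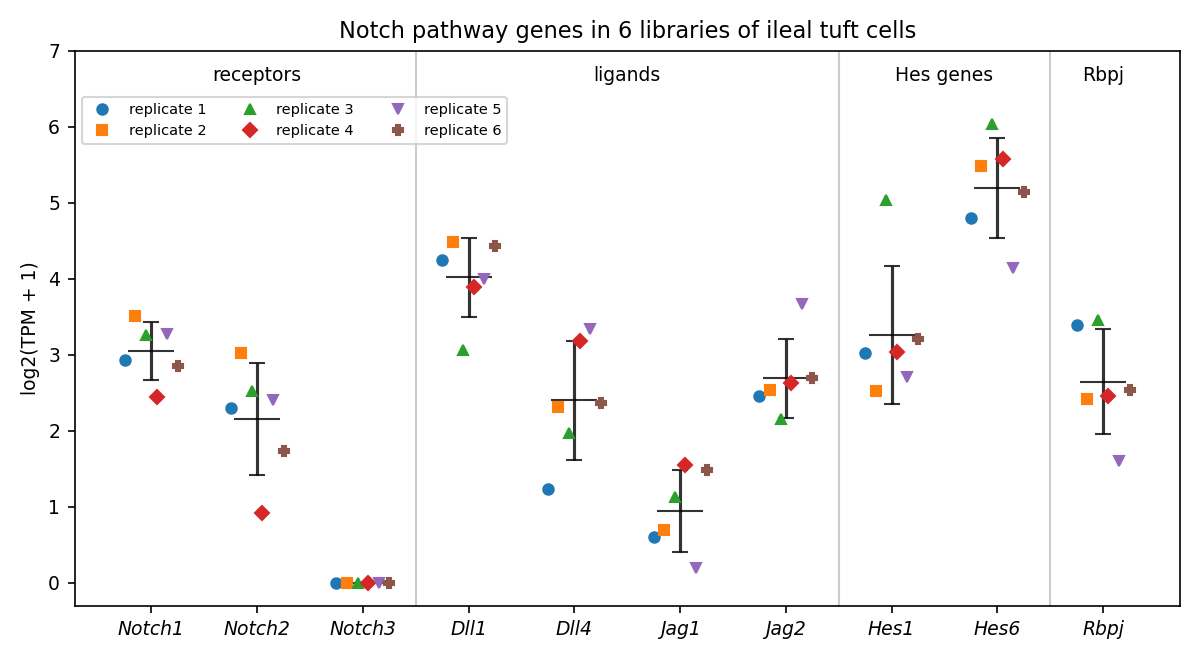
Levels of the 10 genes as log2(TPM + 1) in each of 6 libraries (coloured symbols), with the mean and SD over libraries in black. Hes6 and Dll1 stand highest, Notch3 is at 0 throughout, and Hes1 in replicate 3 lies far above its other 5 libraries.

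Tuft cell genes were abundant in all libraries, and 13 of the 14 markers listed for tuft cells were in the table, all 13 above 0 in every library, with Trpm5 the highest and a summed level of 4379 to 7227 TPM. Markers of other epithelial cells were abundant too. The summed level was 3560 to 21409 TPM for 6 Paneth cell genes (led by Defa24), 1053 to 5118 TPM for 7 goblet cell genes (led by Zg16), 7529 to 15667 TPM for 8 enterocyte genes (led by Fabp1), 387 to 538 TPM for 9 enteroendocrine genes (led by Sct) and 336 to 814 TPM for 7 crypt stem cell genes (led by Olfm4). The list of 7 lymphocyte genes summed to 120 to 272 TPM, and 5 of the 7 were above 0 in all libraries. By mean it was led by Ptprc, the gene of CD45 that tuft cells are also known to transcribe, at 112 ± 42.0 TPM (SD, n = 6). In replicates 5 and 6, however, Gzma was higher than Ptprc, at 140.67 and 157.73 TPM against 77.39 and 74.23 TPM. Endothelium and stroma use several Notch receptors and ligands. The list of 5 endothelial genes summed to 2.85 to 21.3 TPM, nearly all from Plvap, with Cdh5, Kdr and Emcn at 0 throughout, and the list of 6 stromal genes was at 0 in all libraries but replicate 5, where it summed to 62.2 TPM with Col1a2 at 0. In bulk samples such as these, fewer cells of a type and less RNA per cell cannot be told apart, and which cells gave each Notch transcript was not tested.

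**Figure D2:**
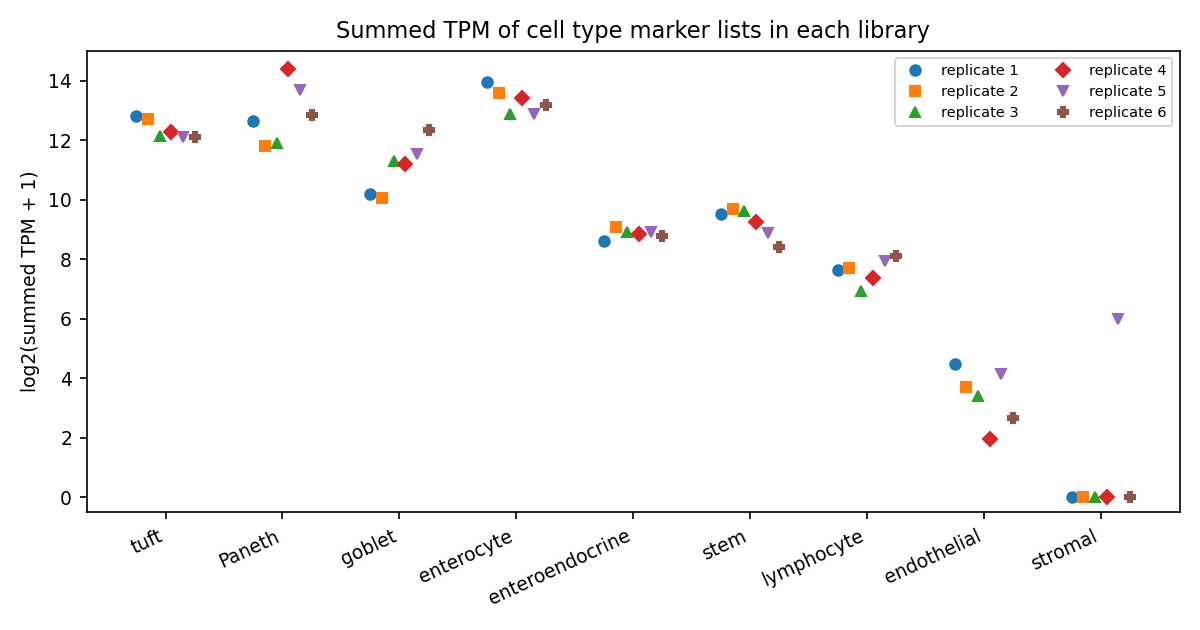
Summed TPM of marker lists for 9 cell types, as log2(summed TPM + 1), in each of 6 libraries. The enterocyte list stands above the tuft cell list in every library, the Paneth list in replicates 4 to 6 and the goblet list in replicate 6. The stromal list is above 0 in replicate 5 alone, at 62.2 TPM.

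Among the receptors, Notch1 was the most abundant in every library. Notch1 is the main receptor of crypt progenitors together with Notch2. The Notch1 gene (ENSMUSG00000026923.15, chromosome 2 of GRCm38, 26457903 to 26516663, minus strand, 34 exons in its principal transcript) had 6.62, 10.38, 8.61, 4.46, 8.66 and 6.25 TPM in replicates 1 to 6. These values spanned 2.33-fold, the narrowest span of the 9 genes listed above 0 and lay between percentiles 31.6 and 47.2 of the genes above 0 in each library. Notch2 (ENSMUSG00000027878.11, chromosome 3, 98013527 to 98150361, plus strand, 34 exons) had 3.93, 7.16, 4.75, 0.89, 4.31 and 2.34 TPM. Its span of 8.04-fold was wider, and replicate 4 was low for both receptors while replicate 2 was high for both. The summed receptor level was lowest in replicate 4, at 5.35 TPM, where the Paneth cell list was highest, at 21409 TPM. In replicate 5, with the next highest Paneth sum of 13244 TPM, the summed receptor level was 13.0 TPM, above the median of 11.8 TPM. The part of Paneth cells in the receptor levels was not tested.

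Notch1 made up 68.2% ± 8.69 of the summed receptor TPM (SD, n = 6), ranging from 59.2% in replicate 2 to 83.4% in replicate 4. It exceeded Notch2 in 6 of 6 libraries, by 0.89 ± 0.38 on the log2(TPM + 1) scale (SD, n = 6), and flipping the signs of the 6 differences in all ways gave an exact two-sided permutation p of 0.03125, which became 0.0347 after Benjamini-Hochberg adjustment over the 10 pairs tested. As a plain ratio of TPM, Notch1 was 1.45 to 5.01 times Notch2, with a median of 1.91. The difference was larger than the spread between libraries.

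Notch3, a receptor best known from vascular smooth muscle and pericytes (ENSMUSG00000038146.8, chromosome 17, 32120820 to 32166852, minus strand, 33 exons), was listed at 0 TPM in all 6 libraries, as were 32.9% of all genes. Notch1 and Notch2 both exceeded it in 6 of 6 libraries (exact permutation p of 0.03125 each, 0.0347 adjusted), and since Notch3 was at 0 these tests say only that the other receptors were listed above 0. No fold is given against a gene listed at 0, and a log2(TPM + 1) difference from Notch3 is only the level of the other receptor, with a size set by the pseudocount. The fourth receptor, Notch4, an endothelial gene outside the set, was listed above 0 in all libraries but only at 0.323 ± 0.216 TPM (SD, n = 6).

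Among the ligands, Dll1 was the most abundant in every library. It encodes a Delta-like ligand that secretory progenitors present to their neighbours. Dll1 (ENSMUSG00000014773.13, chromosome 17, 15367354 to 15376872, minus strand, 11 exons) had 18.02, 21.37, 7.37, 13.9, 14.96 and 20.5 TPM in replicates 1 to 6. Replicate 3 was lowest and the other 5 libraries lay between 13.9 and 21.37 TPM. Dll1 took 57.7% ± 13.2 of the summed TPM of the 4 ligands (SD, n = 6), from 41.6% in replicate 5 to 73.9% in replicate 1. Dll1 lay between percentiles 40.0 and 68.3.

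Dll4, the other Delta-like ligand of the crypt (ENSMUSG00000027314.6, chromosome 2, 119325784 to 119335962, plus strand, 11 exons), had 1.35, 3.97, 2.91, 8.05, 9.13 and 4.15 TPM. It was highest in replicates 4 and 5, the libraries with the highest summed Paneth cell markers, at 21409 and 13244 TPM, though Dll4 was lowest in replicate 1, where that list was at 6318 TPM and not at its lowest. Each of replicates 4 to 6 also had more Dll4 than each of replicates 1 to 3, and the share of all genes that split in this way was not counted. The parts of Paneth cells and of the library sets in the Dll4 level were not tested. Exons of Dll4 share 214 bases with Gm14207 on the opposite strand, which averaged 2.39 ± 2.13 TPM (SD, n = 6). The strand setting of the counting is not given in the sources used here, so reads from these bases cannot be assigned to either gene. No other gene of the set shared exon bases in GENCODE M21 with a gene that the table lists. Unlisted genes share 867 of the 4219 exon bases of Dll1 (A930024N18Rik) and 1068 of the 14232 of Notch1 (0610009E02Rik). Others share 414 bases of Notch1 (Gm13568), 541 of Notch2 (Gm42820) and 488 of Notch3 (Gm17276). Whether reads of these unlisted genes entered the levels of the set was not tested.

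The Jagged ligands are encoded by Jag1 and Jag2. Jag2 (ENSMUSG00000002799.6, chromosome 12, 112907819 to 112929776, minus strand, 26 exons) had 4.48, 4.78, 3.44, 5.21, 11.72 and 5.48 TPM. Replicate 5 stood apart, and the other 5 libraries lay between 3.44 and 5.48 TPM. Jag1 (ENSMUSG00000027276.7, chromosome 2, 137081456 to 137116644, minus strand, 26 exons) was the lowest ligand in every library, at 0.52, 0.62, 1.19, 1.92, 0.15 and 1.81 TPM, or between percentiles 3.89 and 19.8. In replicate 5, Jag2 and Dll4 were at their highest and Jag1 at its lowest. Replicate 5 was also the library with stromal transcripts, at 62.2 TPM, nearly all of them from Dcn, the gene of the matrix proteoglycan decorin, at 59.41 TPM, and their part in these values was not tested.

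Dll1 exceeded each other ligand in 6 of 6 libraries (exact permutation p of 0.03125 for each pair, 0.0347 adjusted). On the log2(TPM + 1) scale the difference was 1.62 ± 0.94 from Dll4, 1.33 ± 0.62 from Jag2 and 3.07 ± 0.80 from Jag1 (SD, n = 6). As ratios of TPM, Dll1 was 1.64 to 13.3 times Dll4 and 1.28 to 4.47 times Jag2. Dll4 exceeded Jag1 by 1.45 ± 0.93, and Jag1 minus Jag2 was -1.74 ± 0.92, again with the same sign in 6 of 6 libraries and the same p from the exact permutation test. Dll4 and Jag2 were not separated: Dll4 was lower in 5 of 6 libraries and higher in replicate 4, with a mean difference of -0.29 ± 0.56 (exact permutation p of 0.28125, 0.281 adjusted). The Delta-like genes together held 75.1% ± 6.02 of the ligand TPM (SD, n = 6), between 67.0% and 82.4%.

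**Figure D3:**
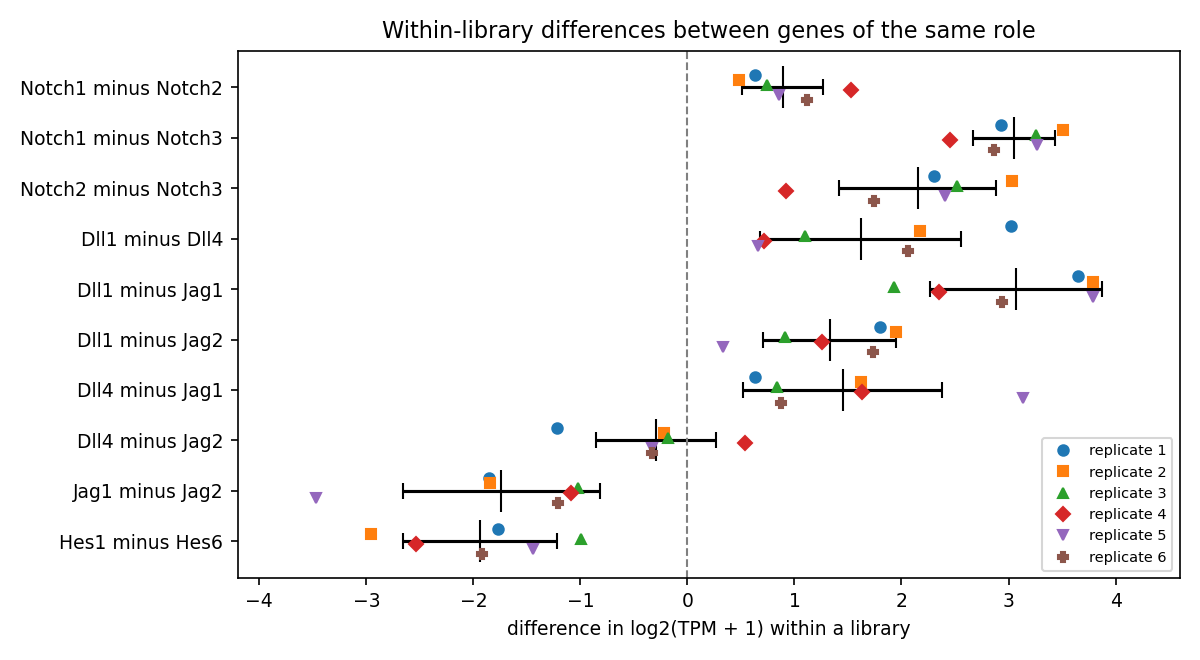
Differences in log2(TPM + 1) within each of 6 libraries (coloured symbols) for the 10 pairs of genes of the same role, with the mean and SD in black and a dashed line at 0. In 9 of 10 pairs all libraries lie on the same side of 0, and Dll4 minus Jag2 is the exception.

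The summed ligand level was above the summed receptor level in every library, at 14.9 to 36.0 TPM against 5.35 to 17.5 TPM. The ligand transcripts, of 3581 to 5612 bases, are shorter than the receptor transcripts, of 8016 to 10500 bases. The part of transcript length in this order was not tested. The ratio of ligand to receptor TPM was 2.31, 1.75, 1.12, 5.44, 2.77 and 3.72 in replicates 1 to 6. It was lowest in replicate 3, which had the least Dll1 and the least Jag2, and highest in replicate 4, which had the least Notch1 and the least Notch2.

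Hes1, the repressor that Notch induces and that holds down Atoh1 (ENSMUSG00000022528.8, chromosome 16, 30064384 to 30067796, plus strand, 4 exons), had 7.16, 4.77, 31.83, 7.23, 5.55 and 8.26 TPM in replicates 1 to 6. In replicate 3 it reached percentile 74.3, while the other 5 libraries lay between 4.77 and 8.26 TPM. The mean of 10.8 ± 10.4 TPM (SD, n = 6) therefore rests on replicate 3, and without it the mean was 6.59 ± 1.41 TPM (SD, n = 5). By Dixon's ratio of the gap to the whole range, replicate 3 stood apart from the other libraries for Hes1. Of the 12032 genes averaging 1 TPM or more, 9.04% had a library that stood apart in this way and 2.46% had replicate 3 alone and high. Of the marker lists, the enterocyte and lymphocyte lists were at their lowest in replicate 3, at 7529 and 120 TPM, and none was at its highest.

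Hes6 (ENSMUSG00000067071.8, chromosome 1, 91411483 to 91414038, minus strand, 4 exons) had 26.78, 43.75, 64.42, 46.8, 16.73 and 34.15 TPM, the highest level of the set in every library and lay between percentiles 63.2 and 86.3. Replicate 3 was highest and replicate 5 lowest. Hes1 was below Hes6 in 6 of 6 libraries, with a difference of -1.94 ± 0.72 on the log2(TPM + 1) scale (SD, n = 6) and an exact permutation p of 0.03125, or 0.0347 adjusted. As a ratio of TPM, Hes6 was 2.02 to 9.17 times Hes1, with a median of 3.94, and the ratio was smallest in replicate 3.

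Rbpj (ENSMUSG00000039191.12, chromosome 5, 53466152 to 53657362, plus strand, 11 exons) had 9.47, 4.33, 9.96, 4.5, 2.05 and 4.82 TPM. Replicates 1 and 3 were high and replicate 5 was low, and the span was 4.86-fold. Its paralog Rbpjl, a pancreatic factor, was listed above 0 in 1 of 6 libraries, at a mean of 0.0283 TPM. Rbpj, Hes1 and Hes6 were all highest in replicate 3, as were 23.7% of the genes averaging 1 TPM or more. Rbpj, Hes6 and Jag1 were lowest in replicate 5, and the share of all genes lowest there was not counted.

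**Figure D4:**
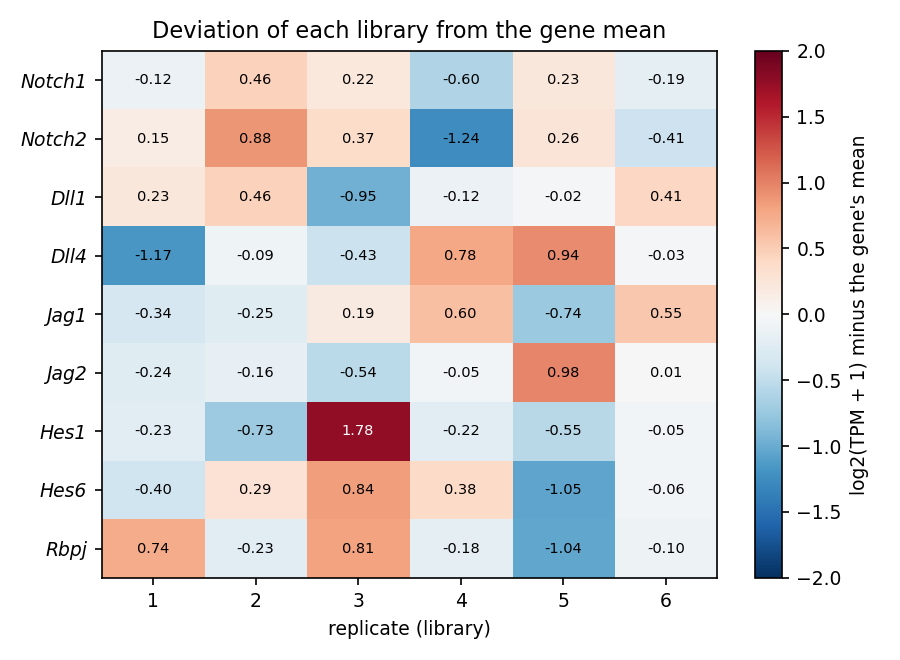
Log2(TPM + 1) of each gene in each library minus that gene's mean over 6 libraries, for the 9 genes listed above 0. Hes1 in replicate 3, at 1.78 above its mean, is the largest deviation, and the receptors share a low value in replicate 4, at -0.60 for Notch1 and -1.24 for Notch2.

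The 6 libraries fall into sets that differ in the abundance of the transcript Gm20594, at 15588 to 21283 TPM in replicates 1 to 3 and 51804 to 56441 TPM in replicates 4 to 6. The labels give no batch. Dll4 and Jag2 were lower in each of replicates 1 to 3 than in each of replicates 4 to 6. Their means were 2.74 against 7.11 TPM for Dll4 and 4.23 against 7.47 TPM for Jag2. The other genes listed above 0 overlapped between the sets. The share of all genes that did not overlap was not counted, so whether the separation of Dll4 and Jag2 is unusual cannot be told. Within these sets of 3, in which the sign-flip test cannot reach 0.05 and no test was made, Notch1 exceeded Notch2 by 0.62 ± 0.13 and 1.17 ± 0.34, Dll1 exceeded Dll4 by 2.10 ± 0.96 and 1.15 ± 0.79, Dll1 exceeded Jag2 by 1.55 ± 0.56 and 1.11 ± 0.71, and Hes1 lay below Hes6 with differences of -1.91 ± 0.99 and -1.97 ± 0.55 (SD, n = 3 each). The difference between Dll1 and Jag1 was 3.12 ± 1.03 and 3.03 ± 0.73, that between Dll4 and Jag1 was 1.03 ± 0.52 and 1.88 ± 1.15, and that between Jag1 and Jag2 was -1.57 ± 0.48 and -1.92 ± 1.34. Dll4 minus Jag2 was -0.54 ± 0.59 and -0.04 ± 0.50. The same gene of each called pair was higher in all 3 libraries of both sets.

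Of 70 further Notch pathway genes, 51 were listed above 0 in all libraries, 13 in some and 6 in none, where over all genes 47.2% were above 0 in all and 32.9% in none, and their median of mean TPM was 7.33, against 5.85 for the 10 genes of the set and 1.24 over all genes. All 10 protease genes, whose products process or cut the receptor, were above 0 in all libraries, and 7 of them were at 10 TPM or more in every library, as were 20.7% of all genes. The most abundant were the gamma-secretase subunits Psenen, at 163 ± 44.2 TPM, and Ncstn, at 136 ± 33.4 TPM, and Adam10, the metalloprotease of the first cut, had 44.1 ± 8.06 TPM (SD, n = 6). Of 5 genes for ubiquitin ligases and partners that act on ligands in the signal-sending cell, 4 were above 0 in all libraries, led by Neurl1a at 40.6 ± 12.9 TPM and Mib2 at 15.7 ± 7.73 TPM. Mib1, the principal ligase for Delta-like and Jagged ligands, had 6.64 ± 1.23 TPM.

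The counts that follow stand beside the 47.2% of all genes that were above 0 in all libraries. Of 5 genes that add sugars to the receptor, 4 were above 0 in all libraries, led by Rfng at 21.7 ± 6.17 TPM and Poglut1 at 16.3 ± 7.11 TPM (SD, n = 6). Among 11 receptor inhibitors and ubiquitin ligases, 9 were above 0 in all libraries, with Nedd4 at 56.2 ± 8.25 TPM and Numb, which blocks Notch in the cell that inherits it, at 29.0 ± 7.51 TPM. Of 8 coactivators, 7 were above 0 in all libraries, with Snw1 at 39.3 ± 11.7 TPM and Ep300 at 30.3 ± 6.35 TPM, and of 11 corepressors 10 were, with Hdac1 at 172 ± 35.5 TPM and Ncor1 at 53.7 ± 6.80 TPM. The mastermind genes, whose products join the complex of Notch and RBPJ, were lower, at 3.79 ± 2.08 TPM for Maml1, 0.308 ± 0.616 TPM for Maml2 and 6.45 ± 2.56 TPM for Maml3.

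The remaining ligands were close to absent. Of Notch4 and 6 non-canonical or divergent ligand genes, only Notch4 was above 0 in all libraries, where 47.2% of all genes were. Dlk1, Dner and Mfap2 were listed at 0 throughout, as were 32.9% of all genes, and Dll3 was listed in replicate 5 alone, at 1.68 TPM.

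**Figure D5:**
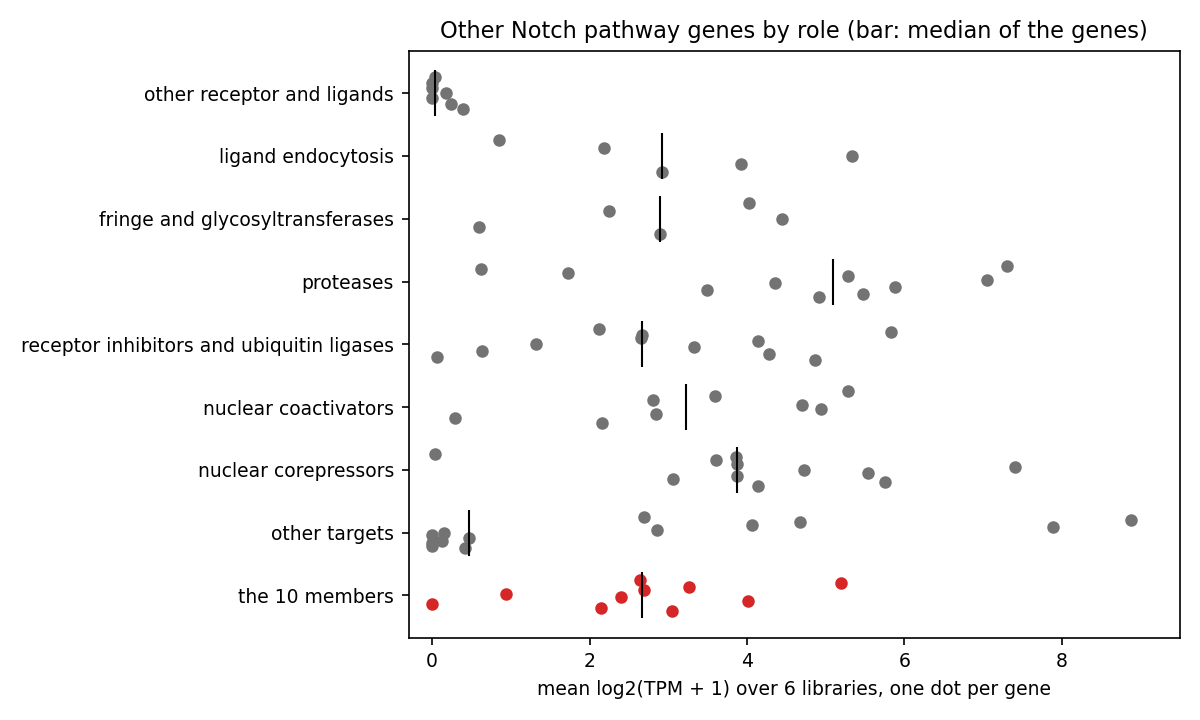
Mean log2(TPM + 1) over 6 libraries for each of 70 other Notch pathway genes in 8 roles (grey) and for the 10 genes of the set (red), with a bar at the median of each row. Proteases and nuclear corepressors stand to the right, and most other targets and the remaining ligands lie near 0.

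Of 13 further genes that Notch is known to induce or repress, 6 were above 0 in all libraries, 4 in some and 3 in none, a share above 0 close to the 47.2% of all genes. Olfm4, a Notch-responsive crypt stem cell gene, had 501 ± 173 TPM and ranged from 235.03 TPM in replicate 6 to 658.63 TPM in replicate 3, and Id1, which also responds to BMP, had 238 ± 36.6 TPM (SD, n = 6). Nrarp, a feedback inhibitor that Notch induces, had 13.6, 4.57, 7.47, 6.63, 2.47 and 7.03 TPM. Like Rbpj, it was lowest in replicate 5, where the share of all genes at their lowest was not counted. Atoh1, which HES1 represses, had 2.82, 5.46, 12.2, 2.75, 9.1 and 4.97 TPM. It was highest in replicate 3, the library with the most Hes1, as were 23.7% of the genes averaging 1 TPM or more. The relation of Atoh1 to Hes1 was not tested. Of the other Hes and Hey genes, Hes3, Hes5 and Hey2 were listed at 0 throughout, and Hes2, Hes7, Hey1 and Heyl were above 0 in 1 or 2 libraries each, with means of 0.117 to 0.770 TPM.

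The DNA letters that RBPJ is known to bind, GTGGGAA, were searched on both strands in windows from 250 bases before to 50 bases after the transcription start (RefSeq, GRCm38.p6). Of the 10 genes of the set 9 had a window in the table, all but Hes1, and 0 of these 9 held the letters, against 7.25% of 27025 genes. Of the 13 other targets 6 had a window and 3 of them held the letters, namely Hes5, Hes7 and Hey2. The sites upstream of the start are shown because they belong to target genes listed at or near 0 here, whereas Nrarp, Olfm4 and Atoh1, which were listed above 0 in all libraries, had windows without the letters. Each is written along the strand of the gene with the motif in capitals (TTCCCAC is the motif read on the opposite strand):
Hes5, chr4:154960831-154960855, plus strand: ccgccgagtGTGGGAAcggccgcgg
Hes5, chr4:154960688-154960712, plus strand: gcgagcgcgTTCCCACagcccggac
Hes7, chr11:69120264-69120288, plus strand: tcccctcacTTCCCACatttggggc
Hey2, chr10:30842975-30842999, minus strand: gcggtggcaTTCCCACgcctctgcc

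The sites of Hes5 begin 83 and 226 bases before the start. Hey2 has a further match that runs across its start site. A match describes letters and not binding, and windows without one say nothing about the factor.

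Genes whose level followed the most abundant gene of each role were sought among 6986 genes averaging 10 TPM or more, by the root-mean-square difference of log2(TPM + 1) profiles after each gene's mean was removed, over 6 libraries. Nearest to Notch1 were Ankrd17, Aup1 and Bcl2l13, at 0.07 to 0.10, and 73 genes were within 0.2 of it. Nearest to Dll1 were Pcf11, Slc25a25 and Casz1, at 0.09 to 0.14, with 28 genes within 0.2. For Hes6 they were Kdelr1, Ptp4a1 and Akt1s1, at 0.13 to 0.16, and for Rbpj they were Tfb1m, Spsb3 and Tmem55b, at 0.15 to 0.16, with 9 and 7 genes within 0.2. Hes1, looked up after its value in replicate 3 had been seen, had 0 genes within 0.2, and its nearest were Brap, Wls and Faf1, at 0.24 to 0.28, which also peaked in replicate 3, at 34.87, 66.44 and 28.29 TPM. With 6 libraries of 1 group, such likeness is a description.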

How the data were processed

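Ileal tuft cells from 6 Gfi1b-eGFP mice were sequenced by a modified SMART-Seq2 protocol, one library per replicate. The authors aligned paired-end reads to the UCSC mm10 transcriptome with Bowtie and deposited TPM values calculated by RSEM. Each library sums to 1000000 within rounding, with 13044 to 13308 genes above 0 in each. The ribosomal RNA precursor Rn45s held 23.1% to 32.6% of the TPM, which lowers all other values. TPM keeps no depth, so precision rests on the 6 libraries alone.

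Columns were matched to replicates by number. Genes were compared on the log2(TPM + 1) scale, which understates differences between low genes, by an exact permutation test (two-sided) that flips the sign of each library's difference in all 64 ways and cannot give a p below 0.03125. The 10 pairs are all pairs within the receptors, the ligands and the Hes genes, and their p-values were adjusted by the Benjamini-Hochberg method. Where 1 gene was higher in all libraries, p follows from the signs alone. The Mann-Whitney test that the methods name for 2 independent samples was an alternative (exact, 924 assignments). Other alternatives were pseudocounts of 0.1 and 0.01, setting values under 1 TPM to 0, median-of-ratios rescaling, rescaling without Rn45s and Gm20594, leaving out each library, the sets of replicates 1 to 3 and 4 to 6, and thresholds of 1 and 10 TPM. The adjustment over 8 pairs without Notch3 was added after the data were seen.

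The 10 genes and all lists were chosen with earlier results of these data known. Named are the 10 genes, per role the 2 most abundant other pathway genes and those at 0 in every library, per marker list the most abundant gene and those at 0, and for 4 genes the 3 nearest profiles. Mib1, Adam10, the mastermind genes, Numb, Nrarp, Atoh1, Rbpjl, Dcn, Gzma, Chga, Chgb, the other Hes and Hey genes and the genes nearest to Hes1 were named after their values were seen or for their known roles. Gene positions come from GENCODE M21 (GRCm38) by symbol, with exons of the longest principal transcript, and are not the authors' gene models. The scripts for rescaling, profile likeness, Dixon's ratio and the permutation tests were tested on simulated data. Scripts ran under Python 3.11.15 with scipy 1.17.1, numpy 2.4.6, matplotlib 3.10.9 and pandas 2.3.3.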

Additional observations from a re-analysis of the deposited data

Results flagged for a closer look

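Of 34 measures screened, 5 had 1 library farther from the others than Dixon's 95% critical ratio for 6 libraries allows, where about 1.7 would be passed by chance at 1 in 20. The 34 are the 10 genes, 8 of their differences and the 16 other pathway genes chosen as the most abundant of each role. Among all genes averaging 1 TPM or more, 9.04% passed it.

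Hes1 was at 31.83 TPM in replicate 3 and at most 8.26 TPM elsewhere, a ratio of 0.871. The ratio was 0.728 on the log2(TPM + 1) scale, 0.816 after median-of-ratios rescaling and 0.811 after rescaling without Rn45s and Gm20594, so the library stood apart on each scale tried. Jag2 was at 11.72 TPM in replicate 5 and at most 5.48 TPM elsewhere (0.754). The difference of Jag1 from Jag2 was lowest in replicate 5, at -3.47 on the log2(TPM + 1) scale (0.661). Dll3 was listed in replicate 5 alone, at 1.68 TPM (1.0). Ep300 was lowest in replicate 3, at 18.05 TPM, with the other libraries at 29.61 to 36.17 TPM (0.638). The libraries form 1 group, so no condition separates them.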

How the results depend on the processing

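The 9 pairs past 0.05 kept their direction under every alternative run, and each kept an adjusted p below 0.05 except Notch2 minus Notch3. With values under 1 TPM set to 0, which removes Notch2 in replicate 4, that difference was 2.0 with an exact sign-flip permutation p of 0.0625 and an adjusted p of 0.0694. By the exact Mann-Whitney permutation test 9 of 10 pairs passed as well, with adjusted p of 0.00541 to 0.0289, and Dll4 minus Jag2 did not (adjusted p = 0.394). Over the 8 pairs without Notch3, 7 passed, with an adjusted p of 0.0357. Sizes moved most with the pseudocount. At 0.01 the differences from Notch3, whose size the pseudocount sets, went from 3.05 to 9.5 for Notch1 and from 2.15 to 8.35 for Notch2, while Dll1 minus Jag1 went from 3.07 to 4.28, Dll4 minus Jag1 from 1.45 to 2.40 and Jag1 minus Jag2 from -1.74 to -2.79.

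With each library left out the differences lay between 0.77 and 0.98 for Notch1 minus Notch2, 1.34 and 1.81 for Dll1 minus Dll4, 2.93 and 3.30 for Dll1 minus Jag1, 1.21 and 1.53 for Dll1 minus Jag2, 1.12 and 1.62 for Dll4 minus Jag1, -0.46 and -0.10 for Dll4 minus Jag2, -1.89 and -1.40 for Jag1 minus Jag2, and -2.12 and -1.73 for Hes1 minus Hes6. No test was made on these, as the sign-flip test cannot give a p below 0.0625 with 5 libraries. The mean of Hes1 fell from 10.8 to 6.59 TPM without replicate 3. Rescaling without Rn45s and Gm20594, which raises every value, took Notch1 from 7.50 to 10.9 TPM and Dll1 from 16.0 to 23.5 TPM, beyond their SD. At 10 TPM in every library, 1 of the 10 genes and 26 of the 70 other pathway genes were left, against 20.7% of all genes. At 1 TPM 7 and 46 were left. The share of all genes at 1 TPM was not counted, so whether these counts differ from it cannot be told. The tests already pair genes within a library, and with 1 group no replicate block between groups could be fitted. Depth is unknown, so how far zeros such as those of Notch3 reflect shallow sequencing cannot be given.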
